A study of Mus musculus with 12 samples.

Results

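The 10 genes described here carry glucose into the adipocyte and through glycolysis to lactate. They were chosen by name, with earlier results of these data known. They are the transporter genes Slc2a1 and Slc2a4, the hexokinase genes Hk1 and Hk2, the phosphofructokinase gene Pfkl and its regulator Pfkfb3, the aldolase gene Aldoa, the enolase gene Eno1, the pyruvate kinase gene Pkm and the lactate dehydrogenase gene Ldha. The count table gave 11 entries for these 10 symbols out of 55573 genes, because Aldoa stood there under 2 gene identifiers. All 11 entries passed the filter on low counts and were among the 15117 genes tested.

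SVF cells (the stromal vascular fraction, which is what digested fat yields once its mature adipocytes are taken off) of C57BL/6 subcutaneous fat were turned into adipocytes in culture. PPARγ, the nuclear receptor that drives adipogenesis, was wild type (WT) or carried T166A (TA, alanine in place of a threonine that can be phosphorylated) or T166D (TD, aspartate as a mimic of the phosphorylated threonine), each homozygous, with 4 libraries per genotype. The mutations were knocked in by gene editing and were present in every cell of the animal, so SVF cells carried them before differentiation began. TA and TD were separate mouse lines, and the paper names WT littermates as controls. It is not said which line the WT libraries came from, so differences between lines cannot be told apart from genotype. All cultures received 850 nM insulin, 1 nM triiodothyronine, 0.5 mM IBMX, 125 nM indomethacin and dexamethasone for 4 days, then insulin and triiodothyronine alone, and RNA was taken on day 8. The labels do not say how many donor mice or cultures stand behind the 4 libraries of a genotype, so each p-value measures the spread between these samples, which may be partly technical. The sex and age of the donors are not given in the sources used here.

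Glucose enters adipocytes through GLUT1, which sits in the plasma membrane, and through GLUT4, which insulin moves from storage vesicles to the surface. Hexokinases trap it as glucose 6-phosphate, phosphofructokinase commits it to glycolysis, and pyruvate kinase and lactate dehydrogenase end the route in pyruvate and lactate. In fat cells the pathway also supplies the glycerol backbone of triglyceride and the acetyl units for fatty acid synthesis, and insulin was present in the medium throughout.

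Levels are given as CPM, counts scaled to a common library size with TMM normalization factors, with the mean ± SD of 4 libraries. Log2 fold changes, their standard errors (SE) and adjusted p-values came from edgeR's quasi-likelihood test with Benjamini-Hochberg adjustment over all 15117 genes, and a gene was called higher or lower at an adjusted p under 0.05. Libraries held 16553324 to 20324286 counts, and the WT libraries, with at least 18823619, were each deeper than any TA or TD library. The biological coefficient of variation was 12.9% over all genes. The 10 genes had at least 1055 counts in every library, leaving aside the minor Aldoa entry, so spread between libraries rather than counting error set their precision.

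The strongest differences concerned a few steps. Because the genes were chosen with earlier results of these data known, their counts beside those of all genes are description only. In TD, Slc2a4, Hk2, Aldoa and Ldha were called lower relative to WT and Hk1 was called higher, that is 5 of 11 entries, against 14.2% of all tested genes called lower and 15.1% called higher. In TA, Pfkfb3 alone was called, and it was higher than in WT, where 6.72% of all tested genes were called higher and 4.41% lower. Between the mutants, Slc2a4, Hk2 and Pfkfb3 were called lower in TD relative to TA and no entry was called higher, where 9.37% of all tested genes were called lower and 7.33% higher. The median log2 fold change of the 11 entries was -0.12 in TD versus WT, 0.08 in TA versus WT and -0.20 in TD versus TA, beside medians of 0.01, -0.01 and 0.02 over all tested genes. TD and WT libraries did not overlap for 6 of the 11 entries, where this held for 32.2% of all tested genes. For TA and WT this was 1 entry against 13.6% of all genes, and for TD and TA 3 entries against 19.9%. The comparisons against WT share the WT libraries, and each is given by its own values.

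**Figure D1:**
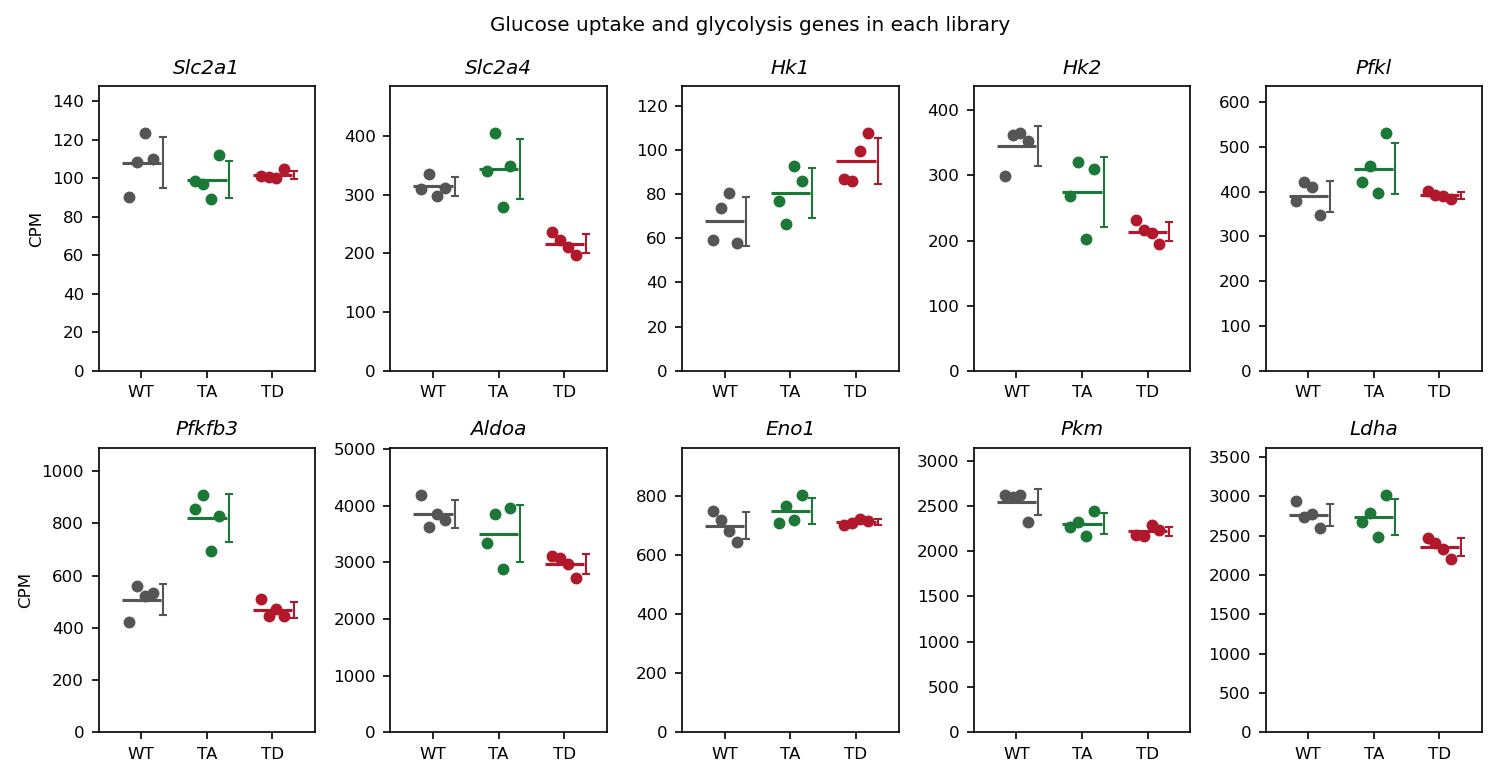
Each panel shows one gene in CPM on an axis that starts at 0, with a point for each of the 4 libraries of WT, TA and TD in the order of their replicate numbers, a horizontal line at the mean and a bar of ± 1 SD. Slc2a4 and Hk2 lie lowest in TD, Pfkfb3 stands out in TA, and Eno1 and Slc2a1 sit at like levels in the 3 genotypes.

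The 250 bases before a transcription start are shown for Hk2, Ldha, Aldoa, Hk1 and Pfkfb3, which are the genes called in TD or in TA relative to WT whose starts are in the RefSeq table used here (GRCm38.p6, read 5′ to 3′ on the gene's strand). Slc2a4 is not in that table. Capitals mark the letters ACGTG or GCGTG on either strand, the core of the hypoxia response element, where CACGTG is also the E-box that MYC and carbohydrate-responsive factors bind. Where a gene has several starts, the window shown is the one with the most matches to these letters (for Aldoa, either of a tied pair), so it was picked for them.

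Hk2, chr6:82774455-82774704, minus strand: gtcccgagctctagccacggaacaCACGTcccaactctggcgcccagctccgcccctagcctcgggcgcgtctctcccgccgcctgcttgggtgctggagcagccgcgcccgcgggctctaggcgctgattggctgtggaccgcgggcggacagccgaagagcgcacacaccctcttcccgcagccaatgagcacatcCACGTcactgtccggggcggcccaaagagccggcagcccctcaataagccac

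Ldha, chr7:46845554-46845803, plus strand: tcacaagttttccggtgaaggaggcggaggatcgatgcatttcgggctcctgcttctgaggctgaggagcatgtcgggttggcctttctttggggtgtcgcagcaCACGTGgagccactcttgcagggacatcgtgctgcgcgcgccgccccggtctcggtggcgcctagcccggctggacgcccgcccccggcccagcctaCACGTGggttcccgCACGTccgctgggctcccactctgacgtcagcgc

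Aldoa, chr7:126799179-126799428, minus strand: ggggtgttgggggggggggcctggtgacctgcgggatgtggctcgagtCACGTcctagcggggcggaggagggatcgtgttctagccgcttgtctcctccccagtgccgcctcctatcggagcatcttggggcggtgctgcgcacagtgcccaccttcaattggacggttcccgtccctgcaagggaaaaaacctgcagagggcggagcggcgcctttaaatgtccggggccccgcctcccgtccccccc

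Hk1, chr10:62340422-62340671, minus strand: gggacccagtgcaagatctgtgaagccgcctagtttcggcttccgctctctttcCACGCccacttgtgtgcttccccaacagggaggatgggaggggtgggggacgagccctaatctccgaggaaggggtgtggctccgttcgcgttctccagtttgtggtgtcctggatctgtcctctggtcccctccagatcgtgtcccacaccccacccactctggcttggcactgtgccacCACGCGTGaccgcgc

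Pfkfb3, chr2:11502091-11502340, minus strand: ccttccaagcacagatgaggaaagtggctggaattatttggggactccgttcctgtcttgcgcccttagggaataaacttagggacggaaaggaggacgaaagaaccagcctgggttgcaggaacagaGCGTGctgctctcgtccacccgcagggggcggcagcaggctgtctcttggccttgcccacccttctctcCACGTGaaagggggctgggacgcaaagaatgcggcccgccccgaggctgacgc

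The window shown for Ldha held 5 matches to ACGTG, counted on both strands so that each of its 2 CACGTG palindromes gives a pair. That of Hk2 held 2 matches and that of Aldoa 1, while Pfkfb3 had 1 CACGTG, counted as 2 matches to ACGTG, and 1 GCGTG, and Hk1 had 3 matches to GCGTG and none to ACGTG. Apart from the tied Aldoa window, those not shown held fewer, with 1 GCGTG at the other start of Ldha, 1 ACGTG at that of Pfkfb3, none at that of Hk1, and none at the start of Aldoa outside the tied pair. Among 32851 start-site windows of this length in the table, 16.6% held ACGTG, 28.2% held GCGTG and 6.02% held CACGTG. The table gave 17 windows for 9 of the 10 genes, since several genes have more than 1 start. Some windows of Aldoa and of Eno1 overlap, so the same letters can be counted more than once. Of these windows 8 held ACGTG (6 genes), 8 held GCGTG (6 genes) and 2 held CACGTG, the latter in Ldha and Pfkfb3. The letters GGGCGG, which Sp1 binds, were in 10 of the 17 windows (7 genes) and in 32.7% of all windows. The direct-repeat PPAR response element, searched on both strands by its consensus, was in none of the 17 and in 0.0335% of all. These matches describe the letters in the window and show neither binding nor a cause.

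Slc2a4 encodes GLUT4, the insulin-responsive transporter, and lies on chromosome 11 (69942539 to 69948188, minus strand). It was at 310, 335, 298 and 312 CPM in WT replicates 1 to 4, at 341, 404, 279 and 349 CPM in TA and at 236, 222, 210 and 198 CPM in TD. The highest TD library was below the lowest library of both other genotypes. Against WT, Slc2a4 fell by 31.0% in TD (log2 fold change -0.53, SE 0.0964, adjusted p = 0.000793). Against TA it was lower by a log2 fold change of -0.66 (SE 0.0965, adjusted p = 0.000279), and TA and WT overlapped (0.13, SE 0.0959, adjusted p = 0.447).

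Slc2a1 encodes GLUT1, the transporter held responsible for basal uptake, and lies on chromosome 4 (119108711 to 119137983, plus strand). Its level was 90.6 to 123 CPM in WT, 89.5 to 112 CPM in TA and 102 ± 2.07 CPM (SD) in TD. The genotypes overlapped in every comparison, with log2 fold changes of -0.09 in TD versus WT (SE 0.0886, adjusted p = 0.482), -0.12 in TA versus WT and 0.03 in TD versus TA. Levels per kilobase were divided by the joined length of all annotated exons of a gene, so that genes can be set side by side. On this scale Slc2a4 was at 90.2 ± 4.49 CPM per kb in WT and Slc2a1 at 30.9 ± 3.84. In TD the pair stood at 62.3 ± 4.74 and 29.0 ± 0.590 CPM per kb. Of the RNA of Slc2a1, Slc2a3 and Slc2a4 together, Slc2a4 made up 71.3% ± 2.604 in WT, 75.2% ± 2.38 in TA and 64.7% ± 1.67 in TD (SD, n = 4). On the log2 scale the ratio of Slc2a4 to Slc2a1 was 1.54 ± 0.213 in WT, 1.78 ± 0.197 in TA and 1.09 ± 0.129 in TD. TD lay below both other genotypes without overlap (exact permutation test, two-sided, with p = 0.0286, which 4 libraries against 4 cannot go below, and 0.075 after adjustment over the 21 ratio tests).

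Hexokinase II, encoded by Hk2 on chromosome 6 (82725025 to 82774454, minus strand), is the isoenzyme of insulin-responsive tissues. Hk2 was at 300, 363, 364 and 353 CPM in WT, at 269, 321, 202 and 309 CPM in TA and at 232, 216, 212 and 195 CPM in TD. The TD libraries all lay below the WT libraries, while TA spanned the range between them, with its replicate 3 inside the TD range. Hk2 fell by 38.0% in TD versus WT (log2 fold change -0.69, SE 0.118, adjusted p = 0.000571), the largest fall of the 10 genes. In TD versus TA the log2 fold change was -0.36 (SE 0.118, adjusted p = 0.0445). That call was lost when libraries were scaled by their totals (adjusted p = 0.0963), when only the 8 libraries compared were fitted (0.0675), and in 9 of the 12 fits that left out a library (0.0501 to 0.159), all but those without WT replicate 1, TA replicate 3 or TD replicate 1. In TA versus WT the log2 fold change was -0.33 (SE 0.118, adjusted p = 0.0867), which was called without TA replicate 2 (-0.41, adjusted p = 0.0319) and without a filter on low counts (-0.34, adjusted p = 0.00379).

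Hk1 encodes the hexokinase found in most tissues and lies on chromosome 10 (62268855 to 62379908, minus strand). It was at 59.1, 73.5, 80.4 and 57.8 CPM in WT, at 77.0, 66.3, 92.9 and 85.8 CPM in TA and at 86.6, 86.1, 99.4 and 107 CPM in TD. Each TD library was above each WT library, and TA overlapped both. Hk1 rose by 40.1% in TD versus WT (log2 fold change 0.49, SE 0.12, adjusted p = 0.00654), the only one of the 10 genes to do so. The values of 0.25 in TA versus WT and 0.24 in TD versus TA, both with an SE of 0.12, were not called (adjusted p = 0.209 and 0.190).

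The ratio of Hk2 to Hk1 brought these opposite movements together. On the log2 scale it was 2.36 ± 0.181 in WT, 1.76 ± 0.477 in TA and 1.17 ± 0.251 in TD, so that TD differed from WT by -1.18 without overlap (exact permutation p = 0.0286, adjusted p = 0.075). TA ranged from 1.12 in replicate 3 to 2.27 in replicate 2 and overlapped TD. Hk2 nevertheless remained more abundant per kilobase than Hk1 in TD, at 35.8 ± 2.53 against 11.1 ± 1.21 CPM per kb. The size of this margin depends on the length used. Annotated exons came to 8532 bases for Hk1 and 5969 for Hk2, and the longest transcripts to 4278 and 5513, which would give a smaller margin.

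Per kilobase, the RNA of Hk1, Hk2 and Hk3 together came to 68.5 ± 6.85 CPM per kb in WT, 56.97 ± 7.63 in TA and 50.3 ± 1.73 in TD (SD, n = 4). Hk2 made up 84.5% ± 2.57 of this sum in WT, 80.3% ± 5.91 in TA and 71.1% ± 3.34 in TD. Hk1 supplied 11.6% ± 1.16 in WT, 16.97% ± 4.51 in TA and 22.2% ± 2.85 in TD. These shares hold for the length of all annotated exons, and by longest transcript Hk1 would weigh more beside Hk2. In each TD library the sum was below every WT library, at 49.0 to 52.7 against 59.3 to 74.3 CPM per kb, and Hk2 remained the main gene of the 3.

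**Figure D2:**
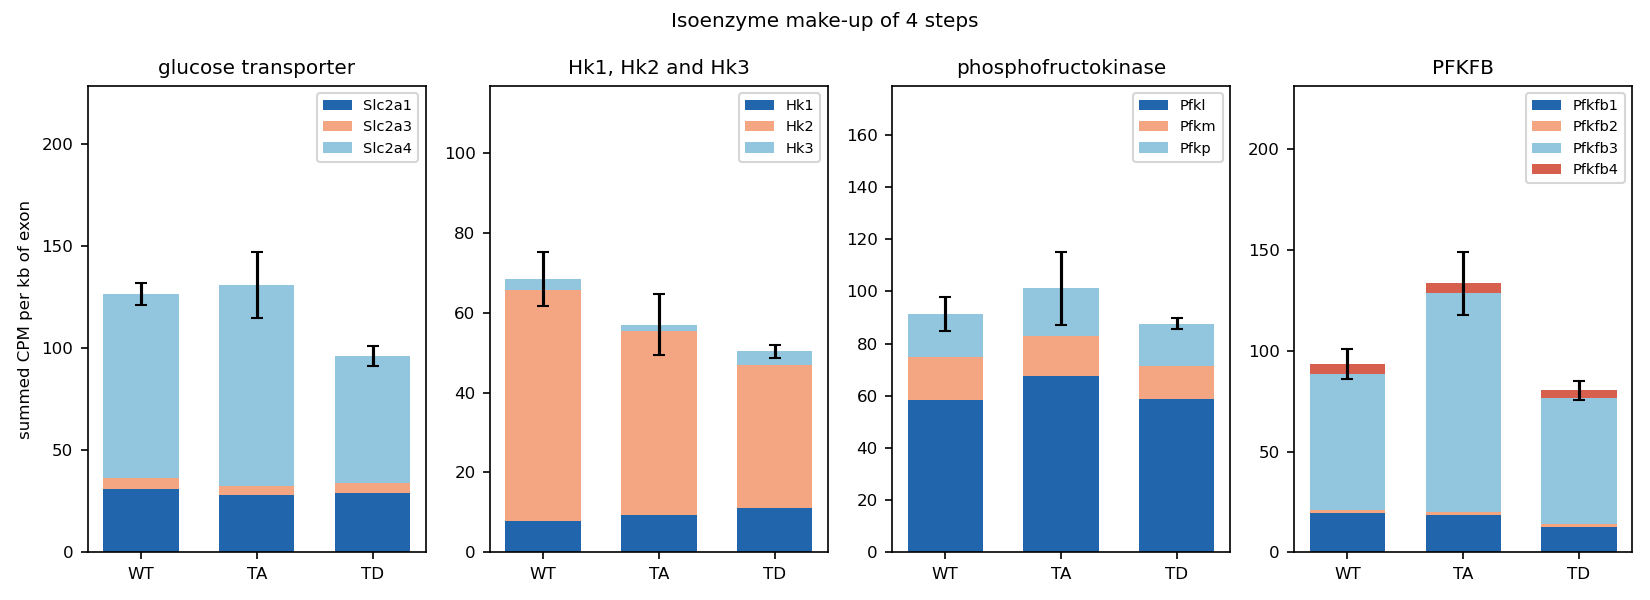
Stacked bars show the mean level of each isoenzyme in CPM per kb of exon for 4 steps in WT, TA and TD, and black bars give ± 1 SD of the sum over 4 libraries. The sum of Hk1, Hk2 and Hk3 is lowest in TD, at 50.3 CPM per kb, with a smaller Hk2 part, and the PFKFB sum is highest in TA.

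Pfkl encodes the liver-type phosphofructokinase, on chromosome 10 (77986947 to 78010083, minus strand), and was the most abundant of the 3 phosphofructokinase genes per kilobase. Its level was 347 to 421 CPM in WT, 397 to 529 CPM in TA and 383 to 402 CPM in TD, with overlap in every comparison. The log2 fold change was 0.01 in TD versus WT (SE 0.0896, adjusted p = 0.946), 0.21 in TA versus WT (adjusted p = 0.144) and -0.20 in TD versus TA (adjusted p = 0.133). The muscle-type gene Pfkm was called lower in TD relative to WT (-0.39, adjusted p = 0.0161), but not without TD replicate 3 or 4 (adjusted p = 0.0502 and 0.0522). The log2 ratio of Pfkl to Pfkm was 2.80 ± 0.118 in WT, 3.16 ± 0.109 in TA and 3.20 ± 0.110 in TD, so both mutants lay above WT without overlap (exact permutation p = 0.0286 each, adjusted p = 0.075). The ratio of Pfkl to Pfkp, the platelet-type gene, overlapped between all genotypes.

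Pfkfb3 encodes the bifunctional enzyme that makes the main allosteric activator of phosphofructokinase, and lies on chromosome 2 (11471433 to 11554077, minus strand). It was at 423, 559, 521 and 532 CPM in WT, at 854, 909, 695 and 829 CPM in TA and at 511, 447, 474 and 447 CPM in TD. Every TA library exceeded every library of the other genotypes, and TD lay within the WT range. Pfkfb3 rose by 61.5% in TA versus WT (log2 fold change 0.69, SE 0.099, adjusted p = 0.000237). In TD it was lower relative to TA (-0.81, SE 0.0992, adjusted p = 6.54e-05), and against WT its log2 fold change of -0.12 (SE 0.0987) was not called (adjusted p = 0.408). Both calls held in every other fit tried.

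Within the PFKFB family, Pfkfb3 made up 71.9% ± 3.07 of the RNA per kilobase in WT, 81.5% ± 0.969 in TA and 77.3% ± 1.16 in TD. Summed over the family, RNA per kilobase was highest in TA, at 133 ± 15.7 CPM per kb beside 93.4 ± 7.63 in WT and 80.3 ± 4.62 in TD. Its relative Pfkfb1, the liver and muscle form, was at 78.8 ± 5.84 CPM in WT, 74.5 ± 13.0 in TA and 50.1 ± 3.38 in TD, and was called lower in TD relative to WT (-0.65, adjusted p = 0.000441) and relative to TA (-0.57, adjusted p = 0.00209).

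Aldoa encodes aldolase A, which splits fructose bisphosphate into triose phosphates. Its main entry (chromosome 7, 126795234 to 126800751, minus strand) was at 4189, 3625, 3847 and 3756 CPM in WT, at 3333, 3856, 2880 and 3964 CPM in TA and at 3107, 3078, 2963 and 2723 CPM in TD. TD stayed below WT in each library, and TA reached from the TD range into the WT range. Aldoa fell by 23.0% in TD versus WT (log2 fold change -0.38, SE 0.103, adjusted p = 0.0115). The values of -0.14 in TA versus WT and -0.24 in TD versus TA were not called (adjusted p = 0.454 and 0.118). The other Aldoa entry lies just upstream on the same strand (126800790 to 126809108), held 2.02 to 3.58 CPM over all libraries and was not called. Aldoc, the gene of aldolase C, was called lower in both mutants relative to WT (-1.002 in TD, adjusted p = 0.000398, and -0.89 in TA, adjusted p = 0.00182), but supplied only 1.05% ± 0.0588 of the aldolase RNA per kilobase in WT.

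Eno1 encodes alpha-enolase, on chromosome 4 (150236721 to 150248879, plus strand), and was level across the genotypes, at 646 to 752 CPM in WT, 710 to 805 CPM in TA and 702 to 724 CPM in TD. Its log2 fold changes were 0.03 in TD versus WT (SE 0.0726, adjusted p = 0.815), 0.10 in TA versus WT (adjusted p = 0.433) and -0.07 in TD versus TA (adjusted p = 0.531). Of the 50-base windows of its longest transcript, 70.5% also occur in Eno1b, a near-identical gene that held a mean of 924 counts, so counts of the pair may have been split or dropped. Eno1b was not called in any comparison of the main fit. In TD versus TA it was called lower by DESeq2 (-0.21, adjusted p = 0.0484) and by edgeR without WT replicate 4 (-0.20, adjusted p = 0.0449). Eno3, the muscle enolase, was at 9.09 ± 1.24 CPM in WT and 15.05 ± 7.34 CPM in TD (log2 fold change 0.73, adjusted p = 0.0338). TD replicate 3, which had the most muscle marker RNA, had the lowest ratio of Eno1 to Eno3, and without it the Eno3 difference was 0.34 and not called (adjusted p = 0.181). The call was also lost without WT replicate 1, WT replicate 3 or TD replicate 4 (0.66 to 0.77, adjusted p = 0.0511 to 0.0872).

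Pkm encodes the muscle-type pyruvate kinase and its splice forms, which these counts do not separate, on chromosome 9 (59656368 to 59679375, plus strand). It was at 2620, 2602, 2616 and 2326 CPM in WT, at 2271, 2324, 2164 and 2445 CPM in TA and at 2182.3, 2170.2, 2286.6 and 2231 CPM in TD. WT replicate 4 stood apart from the other WT libraries, yet TD did not overlap WT. The log2 fold change in TD versus WT was -0.20 (SE 0.0769, adjusted p = 0.0654) and was not called, although DESeq2 called it (adjusted p = 0.00378), as did the fits to the 8 libraries compared (0.0481), without WT replicate 4 (0.0455) and without TA replicate 3 (0.0485). Pkm shared 767 exon bases (15.3%) with Gm49759, a gene on the same strand that was itself higher in TD (0.57, adjusted p = 0.0106), and 34.4% of its 50-base windows occur in other genes, so its counts are uncertain to that extent.

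Ldha encodes the lactate dehydrogenase subunit associated with lactate production, on chromosome 7 (46841475 to 46855627, plus strand). It was at 2940, 2733, 2781 and 2597 CPM in WT, at 2670, 2787, 2480 and 3017 CPM in TA and at 2476, 2409, 2332 and 2203 CPM in TD. TD lay below both other genotypes in every library, by a small margin. Ldha fell by 14.8% in TD versus WT (log2 fold change -0.23, SE 0.0839, adjusted p = 0.049), at the edge of the threshold. The call was lost when libraries were scaled by their totals (-0.16, adjusted p = 0.152), without a filter on low counts (adjusted p = 0.132) and in 9 of the 12 fits that left out a library (0.0513 to 0.142), all but those without TA replicate 2, 3 or 4. In TD versus TA the log2 fold change was -0.22 (adjusted p = 0.0855), which DESeq2 called (adjusted p = 0.0170). The log2 ratio of Ldha to Ldhb, the gene of the subunit associated with lactate use, was 5.01 ± 0.0531 in TD and 4.74 ± 0.175 in TA without overlap (exact permutation p = 0.0286, adjusted p = 0.075), and WT, at 4.84 ± 0.200, overlapped both. Of the windows of Ldha, 16.6% occur in other genes.

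**Figure D3:**
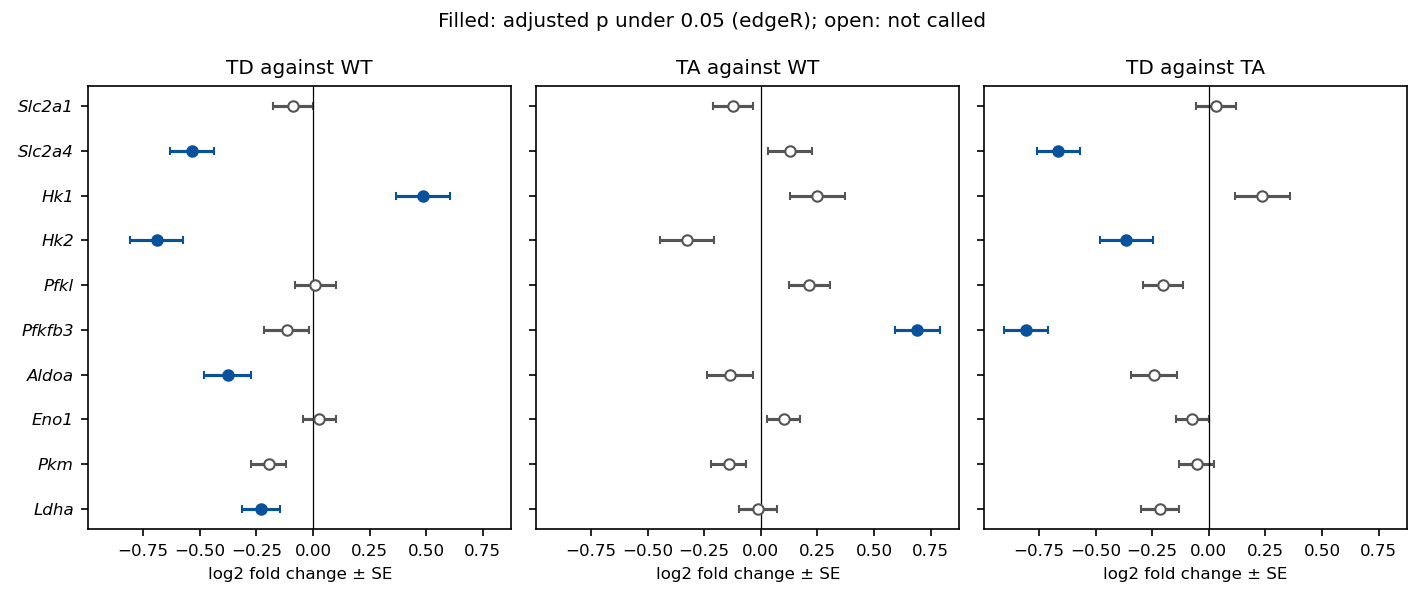
Points give the log2 fold change of each gene in the 3 comparisons with bars of ± 1 SE, and filled points mark an adjusted p under 0.05. In TD versus WT the filled points reach from -0.69 for Hk2 to 0.49 for Hk1, and in TA versus WT only Pfkfb3, at 0.69, is filled.

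The order of the levels per kilobase was alike at the top in all genotypes. It rests on the joined length of all annotated exons, which exceeds the longest transcript unequally. These lengths were 6675 against 3730 bases for Pfkl, 7561 against 4801 for Pfkfb3 and 5969 against 5513 for Hk2. Genes at near levels may thus change places with another length, and the SD covers the libraries only. Counts of Eno1 may also be split with Eno1b. In WT, Aldoa was highest at 1324 ± 82.8 CPM per kb, followed by Ldha at 835 ± 42.9, Pkm at 508 ± 28.7, Eno1 at 130 ± 8.49 and Slc2a4 at 90.2 ± 4.49. On this length Pfkfb3 (67.3 ± 7.86), Pfkl (58.3 ± 5.06) and Hk2 (57.8 ± 5.11) followed and did not differ beyond their spread between libraries. Slc2a1 and Hk1 (7.94 ± 1.30) came last. In TA, Pfkfb3 at 109 ± 12.02 CPM per kb stood beside Slc2a4 at 98.7 ± 14.7, within their spread. In TD, Slc2a4 (62.3 ± 4.74), Pfkfb3 (62.1 ± 3.997) and Pfkl (58.7 ± 1.15) lay together and Hk2 (35.8 ± 2.53) had dropped beneath them.

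The libraries did not vary alike. Relative to the mean, the SD of Pfkl was 8.68% in WT, 12.8% in TA and 1.96% in TD, and that of Slc2a1 was 12.4%, 9.57% and 2.03%. TA replicate 3 was the lowest TA library for 8 of the 10 genes and the highest for 1, Hk1. It also had the least adipocyte marker RNA of the TA libraries, at 15627 CPM against 17572 to 21323 CPM in the others, and the most RNA of fibroblast and preadipocyte markers, at 19607 CPM against 11025 to 15295. Without it, 6 of the 11 entries were called lower in TD relative to TA in place of 3, with Aldoa, Ldha and Pfkl added, while the count over all tested genes rose as well, from 2524 to 3526 calls and from 1416 to 1756 lower ones, and its part in the other TA values was not tested further.

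In bulk RNA, fewer cells of a type and less RNA of a gene per cell cannot be told apart, so markers are set beside the results. Fabp4, which encodes the fatty acid-binding protein of fat cells, was abundant in all genotypes, at 7708 ± 628 CPM in WT, 8897 ± 850 in TA and 5166 ± 609 in TD. Of 10 adipocyte markers, 8 were called lower and none higher in TD versus WT, with a median log2 fold change of -0.55, and 1 was called higher and 1 lower in TA versus WT. Over all tested genes, 14.2% were called lower and 15.1% higher in TD versus WT, and 4.41% and 6.72% in TA versus WT. The summed level of the 10 adipocyte markers was 15697 to 18627 CPM in WT, 15627 to 21323 CPM in TA and 10314 to 12483 CPM in TD, with TD below both. Pparg, the mutated gene, is on this list. It was at 354 ± 19.9 CPM in WT, 374 ± 46.1 in TA and 237 ± 24.2 in TD. PPARγ drives adipogenesis, so the markers cannot separate fewer adipocytes from less marker RNA in each. The fall of Slc2a4 (-0.53) and Hk2 (-0.69) in TD was close in size to the median of the adipocyte markers, and that of Aldoa and Ldha was smaller. The part of cell composition in these falls was not tested. Within TD and within TA, 4 libraries each, the order of the libraries by adipocyte marker RNA was also their order by Slc2a4 and by Hk2. Aldoa and Ldha had the same order in TD but not in TA. In TD this was also the order of the replicate numbers, along which fibroblast and preadipocyte marker RNA rose from 16192 to 24437 CPM. Among the WT libraries, by contrast, the one with the least marker RNA, replicate 2, had the highest Slc2a4. The WT library with the most marker RNA, replicate 1, had the lowest Hk2. The cause of these orders was not tested. The share of counts from mitochondrial genes differed by genotype too, at 4.92 to 5.88% in WT, 2.74 to 4.50% in TA and 2.86 to 3.57% in TD, so that WT lay above both mutants, and its part in the results was not tested.

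Markers of other cells moved as well. Over all tested genes, 15.1% were called higher in TD versus WT, 6.72% in TA versus WT and 7.33% in TD versus TA. Fibroblast and preadipocyte markers, led by the collagen gene Col3a1, were called higher in TD relative to WT for 7 of 9 tested and in TA for 6, with summed levels of 9533 to 12941 CPM in WT, 11025 to 19607 in TA and 16192 to 24437 in TD. Endothelial markers, led by Pecam1, were called higher for 6 of 6 in TD and 4 in TA, at summed levels of 25.4 to 54.4 CPM in WT, 48.8 to 88.8 in TA and 101 to 130 in TD. Skeletal muscle markers, led by Myh1, were called higher in TD relative to WT for 12 of 13 tested, at 8.77 to 29.6 CPM in WT, 24.6 to 95.3 in TA and 22.5 to 340 in TD, and the myogenic factor genes Myog and Myod1 were at 0 in each WT library. Macrophage markers, led by Lyz2, were called in no case in TD versus WT by edgeR or DESeq2 (2 of 8 had an unadjusted p under 0.05). In TA versus WT none was called by either, but all 8 had negative log2 fold changes (median -0.73), and 4 had an unadjusted p under 0.05. In TD versus TA 3 of 8 were called higher. Summed levels were 272 to 797, 133 to 580 and 612 to 854 CPM in WT, TA and TD. Cell division markers, led by Mki67, were called higher for 1 of 8 in TD versus WT. Hk1 is expressed in most of these cell types, and the part of these cells in its rise and in the other differences was not tested.

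The other genes of the pathway were read from lists of metabolic genes. Of all tested genes, 14.2% were called lower and 15.1% higher in TD versus WT. These shares were 4.41% and 6.72% in TA versus WT and 9.37% and 7.33% in TD versus TA. They stand beside the counts of the lists below as well. Of 15 other glycolytic enzyme genes tested, 7 were called lower and 3 higher in TD relative to WT, 4 lower and none higher in TA relative to WT, and 3 lower and 3 higher in TD relative to TA. Gpi1, which isomerises glucose 6-phosphate, was at 1644 ± 94.8 CPM in WT, 1193 ± 196 in TA and 1081 ± 72.7 in TD and was called lower in both mutants relative to WT (-0.60 in TD, adjusted p = 0.000645, and -0.46 in TA, adjusted p = 0.00907). Pgk1, phosphoglycerate kinase, was likewise called lower in both (-0.57 and -0.33, adjusted p = 0.000701 and 0.0443), with 68.0% of its windows shared with other genes, and the call in TA was lost in the fit to 8 libraries (adjusted p = 0.0768), with a replicate block (0.0574) and in 8 of the 12 fits that left out a library. Pgam1, phosphoglycerate mutase (-0.58, adjusted p = 0.000211, with 41.5% of its windows shared), and Tpi1, triose phosphate isomerase (-0.31, adjusted p = 0.00806), were called lower in TD versus WT, and both were also lower in TD relative to TA (-0.35 and -0.32, adjusted p = 0.0114 and 0.0129). Gapdh had only 13.4 ± 2.85 CPM in WT, with 27.8% of its windows found in 218 other genes, and its values are not read. Read along the pathway, Slc2a4, Hk2, Gpi1, Aldoa, Tpi1, Pgk1, Pgam1 and Ldha were thus called lower in TD versus WT, Ldha at the edge of the threshold. Slc2a1, Pfkl, Eno1 and Pkm were not called. The isoenzyme genes Hk1, Eno2 and Eno3 were called higher and Pfkm, Aldoc and Ldhb lower, where the calls of Eno3, Pfkm and Ldhb were lost in some fits. Eno2, the neuronal enolase, was called higher in TD (0.90, adjusted p = 0.0100), and Hk3 was higher in TD relative to TA (1.20, adjusted p = 0.0157). Hk3 was at 5.38 ± 2.04 CPM in TA and 12.4 ± 1.73 in TD. Summed macrophage marker RNA was 315 ± 190 CPM in TA and 696 ± 111 in TD, and its part in the Hk3 difference was not tested.

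Among 7 other hexose transporter genes tested, 2 were called higher and 1 lower in TD relative to WT. The shares over all tested genes were 15.1% and 14.2%. Slc2a10 was higher (0.71, adjusted p = 0.00292) and Slc2a8 lower (-0.29, adjusted p = 0.0393), a call lost with library totals (adjusted p = 0.0985) and in 7 of the 12 fits that left out a library. Slc2a13, counted in this list though it encodes the proton-coupled inositol transporter, was higher in TD (0.62, adjusted p = 0.00599) and in TA (0.78, adjusted p = 0.00293). Slc2a3, which encodes GLUT3, was lower in TA (-0.47, adjusted p = 0.00506). Of 14 genes for the traffic of GLUT4 vesicles, 4 were called lower in TD relative to WT, among them Trarg1, a GLUT4 vesicle protein (-0.60, adjusted p = 0.00304). Stxbp3, which encodes a syntaxin-binding protein of vesicle fusion, was called higher in TD relative to TA (0.32, adjusted p = 0.0326), a call lost in 6 of the 12 fits that left out a library (0.0605 to 0.0865), those without TA replicate 1, 2 or 4 or TD replicate 1, 2 or 4.

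Many genes for the fate of pyruvate were called lower in TD. Of 19 genes for lactate and pyruvate handling, 13 were called lower and 2 higher in TD relative to WT (median log2 fold change -0.41), and 11 were lower and none higher in TD relative to TA (-0.44). In TA versus WT 2 were called higher and 1 lower. Mpc2, a subunit of the mitochondrial pyruvate carrier, was at 157 ± 17.5 CPM in WT, 235 ± 33.2 in TA and 110 ± 7.29 in TD, and so rose in TA (0.58, adjusted p = 0.00134) and fell in TD (-0.51, adjusted p = 0.00171). Bsg encodes basigin, the chaperone of the lactate transporters, and was lower in both mutants relative to WT (-1.07 in TD, adjusted p = 0.000145, and -1.002 in TA, adjusted p = 0.000275). Slc16a3, which encodes the lactate exporter MCT4, was higher in TD (0.67, adjusted p = 0.00389).

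Branches from the pathway differed by genotype. Of 7 pentose phosphate genes, 5 were called lower in TD relative to WT, 4 were lower relative to TA, and none was called in TA versus WT by edgeR or DESeq2, where 3 had an unadjusted p under 0.05 and the log2 fold changes ran from -0.22 to 0.22. Tkt, transketolase, was lowest in TD (-0.50 against WT, adjusted p = 0.00129). Of 11 glycogen genes tested, 4 were called higher and 1 lower in TA relative to WT. Ppp1r3c, a glycogen-targeting subunit of protein phosphatase 1, rose in TA (1.08, adjusted p = 4.3e-05) and in TD (0.77, adjusted p = 0.000478). Pygb, the brain-type glycogen phosphorylase, fell in both (-1.005 and -0.85, adjusted p = 8.71e-05 and 0.000261). Pygl, the liver-type phosphorylase, was called lower in TD relative to TA (-0.91, adjusted p = 1.28e-05). In the list of 5 tested genes for the other PFKFB enzymes and the opposing phosphatases, 3 were called lower in TD relative to WT and none in TA by edgeR or DESeq2, where 2 had an unadjusted p under 0.05.

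**Figure D4:**
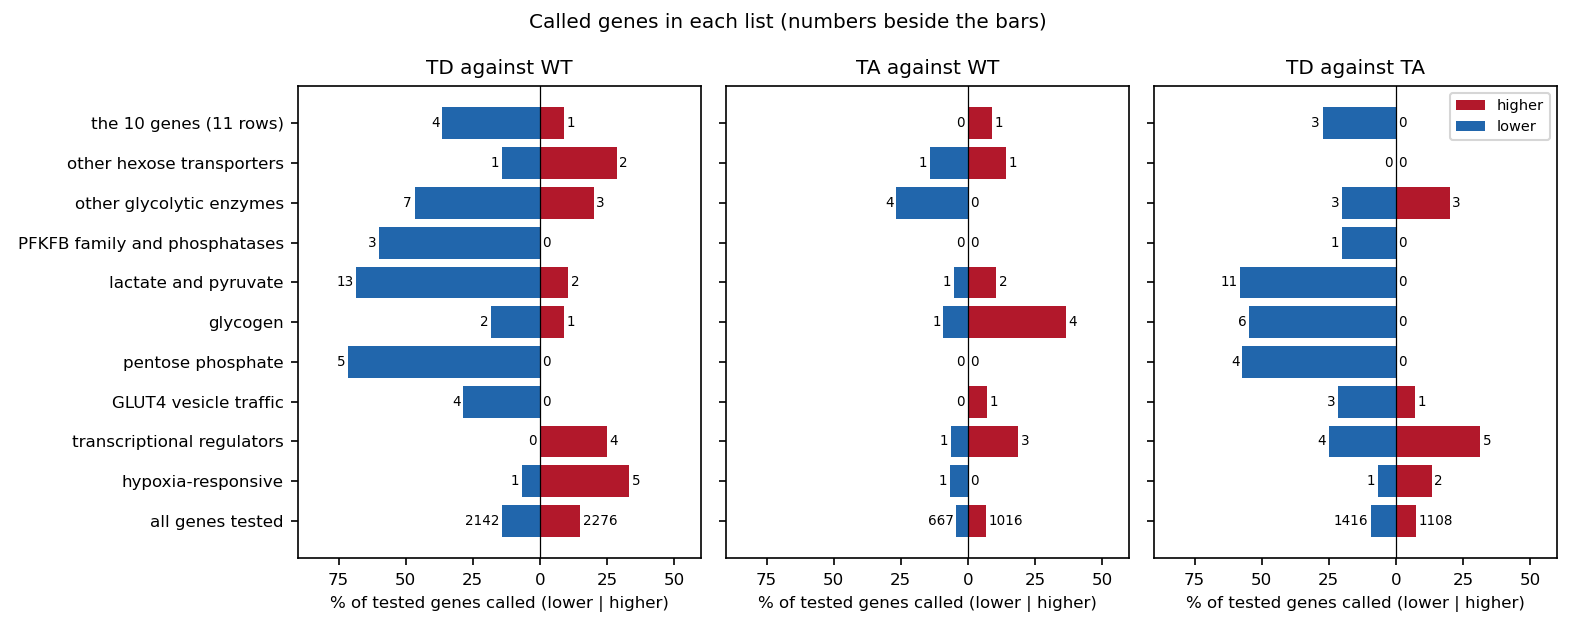
Bars give the percent of the tested genes of each list called higher (to the right) or lower (to the left) in the 3 comparisons, with the number of genes beside each bar, and the last bar gives all genes tested. Lactate and pyruvate genes and pentose phosphate genes are mostly called lower in TD versus WT, at 13 and 5 genes, and no pentose phosphate gene is called in TA versus WT.

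The list of transcriptional regulators of these genes, which also holds the glucose-responsive genes Arrdc4 and Txnip, went both ways. Of 16 tested, 4 were called higher and none lower in TD relative to WT, 3 higher and 1 lower in TA relative to WT, and 5 higher and 4 lower in TD relative to TA. Over all tested genes, 15.1%, 6.72% and 7.33% were called higher and 14.2%, 4.41% and 9.37% lower in these comparisons. Arrdc4, a glucose-responsive target that limits glucose uptake, rose in both mutants (1.23 in TD, adjusted p = 0.000141, and 1.13 in TA, adjusted p = 0.00034). Ppargc1a, which encodes the coactivator PGC-1α, was lower in TD relative to TA (-0.81, adjusted p = 0.000173), and Mef2c was higher (0.62, adjusted p = 0.0130). Myc was lower in TA relative to WT (-0.32, adjusted p = 0.0330), which was lost in 5 of the 12 fits that left out a library. Of 15 hypoxia-responsive genes outside glycolysis, 5 were called higher and 1 lower in TD relative to WT. Ankrd37 was among the former (0.72, adjusted p = 0.00905) and Higd1a was the latter (-0.33, adjusted p = 0.00938). In TD versus TA, Ndrg1 was called higher (0.57, adjusted p = 0.0420, and 0.0683 by DESeq2), and in TA versus WT, Adm was called lower (-0.43, adjusted p = 0.0058).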

How the data were processed

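RNA-seq libraries of in vitro differentiated adipocytes were analysed for 3 genotypes with 4 libraries each, grouped by the genotype in the sample labels. According to the submitters' processing notes, bcl2fastq 2.17.1.14, cutadapt 1.9.1, HISAT2 2.0.1 and HTSeq 0.6.1 were used with GRCm38. The authors deposited unnormalized read counts per gene, as 1 table and library by library with equal values. The strand setting is not given in the sources used here, so reads from overlapping genes of opposite strands cannot be told apart.

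Computation used R 4.3.3 with edgeR 4.0.16 and DESeq2 1.42.0. Genes were kept by filterByExpr (minimum count 10, minimum total 15), scaled by TMM and fitted in a single quasi-likelihood model of 12 libraries. P-values were two-sided and underwent Benjamini-Hochberg adjustment. The steps were tested on simulated data. Depth was 16553324 to 20324286 counts per library, and all 18 pairs of replicates differed beyond sampling noise (chi-square divided by its degrees of freedom, 4.67 to 35.3). Ratios between isoenzymes were differences of log2 CPM values, computed with a prior count of 2, and were compared by exact permutation. Log2 ratios of raw counts with 0.5 added to each were an alternative. Positions, exon lengths and shared 50-base windows came from GENCODE M21, which held 99.8% of the identifiers.

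Named were the 10 genes, their ratio partners, Gapdh, Gpi1, Tpi1, Pgk1 and Pgam1, near-identical or overlapping genes, and from each other metabolic or regulatory list the largest rise and fall in each comparison among called genes whose mean reached 5 CPM in the genotype with more, and the marker with the highest mean CPM of each marker list. Some genes of these lists are counted in them but not reported here by name. Pfkfb1, Slc2a13 and the genes of the step sums are named in further comparisons, chosen after their values were seen, as are Myog, Myod1 and Pparg. The members and lists were chosen with earlier results of these data known. Alternatives were other scalings, no filter, DESeq2, the 8 libraries of a comparison, a replicate block and each library left out.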

Additional observations from a re-analysis of the deposited data

Results flagged for a closer look

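Over 180 groups of 4 libraries, each gene or ratio in each genotype, the highest or lowest library stood apart from the other 3 by more than Dixon's critical value in 9, and chance gives about 1 in 20 such groups. Among the 10 genes this was Pkm in WT replicate 4, at 2326 CPM where the other WT libraries had 2602 to 2620. The log2 ratio of Pfkl to Pfkm, at 3.04, set TD replicate 2 apart from 3.24 to 3.27 in the other TD libraries, and the ratio of Aldoa to Aldoc, at 6.86, set TD replicate 1 apart from 7.06 to 7.09. In TD replicate 1, Eno1b was at 49.7 CPM (46.7 to 47.1 in the others) and Higd1a at 81.8 CPM (67.2 to 69.1). Slc16a3 was at 90.4 CPM in TD replicate 3 (81.3 to 82.1) and Ankrd37 at 18.4 CPM in TD replicate 4 (22.7 to 22.8). In TA, Ppp1r3c was at 317 CPM in replicate 4 (257 to 259) and Ppargc1a at 19.4 CPM in replicate 1 (14.8 to 15.5).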

How the results depend on the processing

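The calls of Slc2a4, Hk2, Hk1 and Aldoa in TD versus WT, of Pfkfb3 in TA versus WT and of Slc2a4 and Pfkfb3 in TD versus TA kept their direction and passed the threshold in every alternative tried. The number of the 11 entries called in TA versus WT was 2 without a filter on low counts and ran from 1 to 2 with a library left out, 2 being the value without TA replicate 2, where Hk2 joined. In TD versus TA it ran from 2 to 6, and the 6 came without TA replicate 3. The same numbers on libraries of different genotypes did not pair them: deviations of same-numbered libraries correlated at -0.24 to 0.20 (12 pairs, 2 of them over 0.1) and those of other pairs at -0.26 to 0.26. With a replicate block, 4, 1 and 2 entries were called in TD versus WT, TA versus WT and TD versus TA, in place of 5, 1 and 3, and Ldha (adjusted p = 0.0769) and Hk2 (adjusted p = 0.0617) were the calls lost, with that of Pgk1 in TA versus WT (0.0574) among the other named genes, while Gapdh in TD versus WT (0.0206) and Gm49759 in TD versus TA (0.0466) were gained.

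Small log2 differences that were not called changed sign, for which the cause was not tested. With library totals these were the minor Aldoa entry (0.0493), Pfkp (0.0379) and Eno1b (0.00955) in TD versus WT, Tpi1 (-0.0042) in TA versus WT, and Eno1 (0.0039) and Pkm (0.0242) in TD versus TA, and without a filter Tpi1 (-0.0057) in TA versus WT. With a library left out, the differences in TD versus WT ran from -0.0425 to 0.0490 for Pfkl, -0.135 to 0.133 for the minor Aldoa entry, -0.0111 to 0.0666 for Eno1 and -0.0942 to 0.0326 for Pfkp. In TA versus WT they ran from -0.0448 to 0.23 for the minor Aldoa entry, -0.0713 to 0.0323 for Ldha, -0.0125 to 0.18 for Ldhb, -0.17 to 0.0276 for Eno3 and -0.0453 to 0.0457 for Tpi1. In TD versus TA they ran from -0.0154 to 0.11 for Slc2a1, -0.26 to 0.0903 for Aldoc, -0.0025 to 0.10 for the ratio of Pfkl to Pfkm and -0.0395 to 0.0149 for that of Pfkl to Pfkp. With 3 libraries against 4 the exact test of a ratio cannot go below 0.0571.

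Over all genes, 2524 were called in TD versus TA, but 1422 without TA replicate 2 1432 and 1586 without TD replicate 4 and 3, and 3526 without TA replicate 3. Library totals put 64.6% of the calls higher in TD versus WT in place of 51.5%, and 64.7% in place of 43.9% in TD versus TA, where they moved the median of all genes to 0.10 and no filter gave 54.3%. With 1 library left out, calls of named genes outside the 10 were also lost for Ldhb (TD versus WT, adjusted p = 0.0620 without WT replicate 1) and, in TD versus TA, Hk3 (0.0531 without TA replicate 2), Mef2c (0.0553 without TD replicate 3), Tpi1 (0.0533 without TD replicate 4) and Ndrg1 (0.0680 to 0.130 in 5 fits).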
